A study of Mus musculus with 6 samples.

Results

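The VEGF system was examined through 10 genes, chosen by name because they encode its secreted ligands and its cell surface receptors: the ligand genes *Vegfa*, *Vegfb*, *Vegfc*, *Vegfd* and *Pgf* (5 genes), and the receptor and co-receptor genes *Flt1*, *Kdr*, *Flt4*, *Nrp1* and *Nrp2* (5 genes). They are 10 of the 34745 genes listed, and all 10 were measured in every library. The samples were cardiac fibroblasts from the left ventricle of male mice aged 8 to 10 weeks, collected on Day 7 after myocardial infarction (MI) produced by permanent coronary ligation, in 3 libraries labelled KO (KDM5B knockout) and 3 labelled WT (littermate wild-type mice, with C57BL/6 as the wild-type strain). The knockout was made with CRISPR/Cas9 and deletes the part of *Kdm5b* that contains the JmjC domain, and it is not restricted to fibroblasts. All 6 libraries come from infarcted hearts, so no uninjured heart enters the comparison. The labels do not say whether the replicates of a label came from separate animals, and p-values therefore measure the spread between these libraries.

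VEGF-A binds FLT1 (VEGFR1) and KDR (VEGFR2), and KDR carries most of the signal that makes endothelial cells divide, migrate and survive. FLT1 binds VEGF-A tightly but signals weakly, and it also binds PGF and VEGF-B, which do not bind KDR. VEGF-C and VEGF-D act mainly on FLT4 (VEGFR3), the receptor of lymphatic endothelium, and the neuropilins NRP1 and NRP2 present ligands to these kinases and also serve semaphorins. In the heart, the kinase receptors are found mostly on endothelial cells, while cardiomyocytes and stromal cells are sources of the ligands.

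The promoters of the 4 members that rose most and of *Vegfa*, the member that fell, are shown because they are the sequences from which these transcripts start. Each runs from 250 bases before to 50 bases after the start given by RefSeq (assembly GRCm38.p6), 5′ to 3′ on the strand of the gene. All 10 members had an entry in that table. Capitals mark the GC box (GGGCGG, which reads CCGCCC on the other strand), a word bound by SP factors, and the full cAMP response element (CRE, TGACGTCA), a word bound by CREB and ATF factors. They lie at chr5:75978406-75978705 (*Kdr*), chr12:85177264-85177563 (*Pgf*), chr5:147725962-147726261 (*Flt1*) and chr17:46032328-46032627 (*Vegfa*) on the minus strand, and at chr11:49609429-49609728 (*Flt4*) on the plus strand.
Kdr: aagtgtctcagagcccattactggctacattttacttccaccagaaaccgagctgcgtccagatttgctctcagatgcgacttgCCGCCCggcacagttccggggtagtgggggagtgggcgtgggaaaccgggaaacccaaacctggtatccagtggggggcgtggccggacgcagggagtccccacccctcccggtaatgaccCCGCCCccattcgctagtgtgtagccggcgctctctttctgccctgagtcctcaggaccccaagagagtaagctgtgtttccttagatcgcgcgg
Pgf: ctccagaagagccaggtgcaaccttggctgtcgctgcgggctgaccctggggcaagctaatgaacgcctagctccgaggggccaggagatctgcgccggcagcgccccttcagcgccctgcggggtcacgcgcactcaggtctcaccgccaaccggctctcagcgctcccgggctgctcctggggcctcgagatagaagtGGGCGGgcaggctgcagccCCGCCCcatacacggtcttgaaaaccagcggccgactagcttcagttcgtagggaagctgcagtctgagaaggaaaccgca
Flt1: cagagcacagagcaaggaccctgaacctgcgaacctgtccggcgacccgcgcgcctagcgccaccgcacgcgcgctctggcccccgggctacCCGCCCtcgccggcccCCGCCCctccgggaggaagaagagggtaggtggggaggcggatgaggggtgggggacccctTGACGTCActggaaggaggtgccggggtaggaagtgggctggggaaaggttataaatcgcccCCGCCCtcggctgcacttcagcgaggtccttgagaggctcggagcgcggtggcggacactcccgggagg
Flt4: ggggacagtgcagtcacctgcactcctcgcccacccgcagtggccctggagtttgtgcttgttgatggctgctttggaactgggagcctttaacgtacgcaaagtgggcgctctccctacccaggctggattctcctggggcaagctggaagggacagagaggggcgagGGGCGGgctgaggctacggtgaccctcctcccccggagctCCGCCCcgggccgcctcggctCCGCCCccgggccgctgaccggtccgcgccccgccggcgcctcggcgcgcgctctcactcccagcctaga
Vegfa: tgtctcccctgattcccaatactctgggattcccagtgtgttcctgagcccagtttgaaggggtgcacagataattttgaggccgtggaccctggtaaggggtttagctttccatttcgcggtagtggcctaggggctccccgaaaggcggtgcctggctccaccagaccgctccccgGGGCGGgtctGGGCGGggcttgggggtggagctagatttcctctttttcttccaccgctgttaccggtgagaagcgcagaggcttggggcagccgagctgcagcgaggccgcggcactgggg

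At least 1 GC box was found in the first listed promoter of 9 of the 10 members and in 35.7% of the 32851 promoters of that length in the table. The exception was *Vegfd*, whose window has 2 CpG dinucleotides, where the median promoter has 7 and the window of *Kdr* has 19. The CRE word was found in *Flt1* alone among the members, 81 bases before the start (position -81), and in 1.79% of all promoters. The word TATAAA, found in many promoters that start at a fixed point, was present in *Flt1* at -31 and in *Vegfd* at -73, and in 13.6% of all promoters. A word of the hypoxia response element, ACGTG or else the word GCGTG on either strand, was found in 6 of the 10 members (43.8% of all promoters), among them *Kdr* at -131 and -89, and not in the window of *Vegfa* printed here, although the second *Vegfa* start listed has 2 such words, at -218 and -211. The words AGGAAG and, with other outer letters, CGGAAG, then the variant AGGAAA and likewise the variant CGGAAA, which hold the core bound by ETS factors of endothelial cells, were found in 6 of the 10 members and in 64.7% of all promoters. All words were sought on both strands, and no word overlapped a word of another kind in these windows. A match is a description of the letters and not a site in use, and the absence of a word says nothing of sequence outside the window.

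Counts per gene and FPKM (counts scaled to gene length and to the total of the library) were available for each library, with totals from 12025403 to 15329427 counts. *Kdm5b* itself, read as a check of the labels, had 5.13, 5.53 and 5.47 FPKM in the KO libraries and 5.51, 6.52 and 6.27 in the WT libraries. Its log2 fold change was -0.22 (standard error, SE, 0.07, edgeR adjusted p = 0.0574), which did not pass the threshold of 0.05, and the groups are therefore called by their labels. Gene totals do not show where in the gene the reads lie, so the loss of the deleted bases was not tested and the gene total is a weak check. The labelled cell type was checked on its markers: *Col1a1* stood at 1819 FPKM in KO and 2417 FPKM in WT on average, and 13 of 14 fibroblast markers were lower in KO under TMM scaling, where 12.5% of all genes tested were called lower. When cardiomyocyte and macrophage markers set the scale of the libraries, none of the 14 was lower (median log2 fold change -0.03), where 0.341% of all genes were called lower. Markers of other cells were also present in all libraries, with a sum over 12 cardiomyocyte markers of 375 to 418 FPKM in KO and 500 to 527 in WT, and over 12 macrophage markers of 829 to 857 and 1025 to 1101.

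Each change is given as KO relative to WT, from edgeR's quasi-likelihood test with TMM scaling and Benjamini-Hochberg adjustment over the 14084 genes tested. Of the 10 members 8 passed the threshold, where 30.2% of all genes tested were called, and 7 rose, where 17.7% were called higher. *Vegfa* alone fell, under TMM scaling and not under the marker scalings described further on, where 12.5% of all genes were called lower, and *Vegfc* and *Vegfd* did not pass. All 5 receptors were among those that rose, against 2 of the 5 ligands. More than 2-fold rises were seen in *Kdr*, *Pgf*, *Flt1* and *Flt4*, 4 of the 10 members, where 5.99% of all genes tested rose that far. The median log2 fold change of the members was 0.62 and that of all genes tested was -0.02. In FPKM, the libraries of the labels did not overlap for 7 members with KO above WT (27.5% of all genes) and for 2 members with KO below WT (18.9% of all genes), where 46.4% of all genes did not overlap in either direction. The plot of FPKM by library shows the members with all 6 values.

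**Figure D1:**
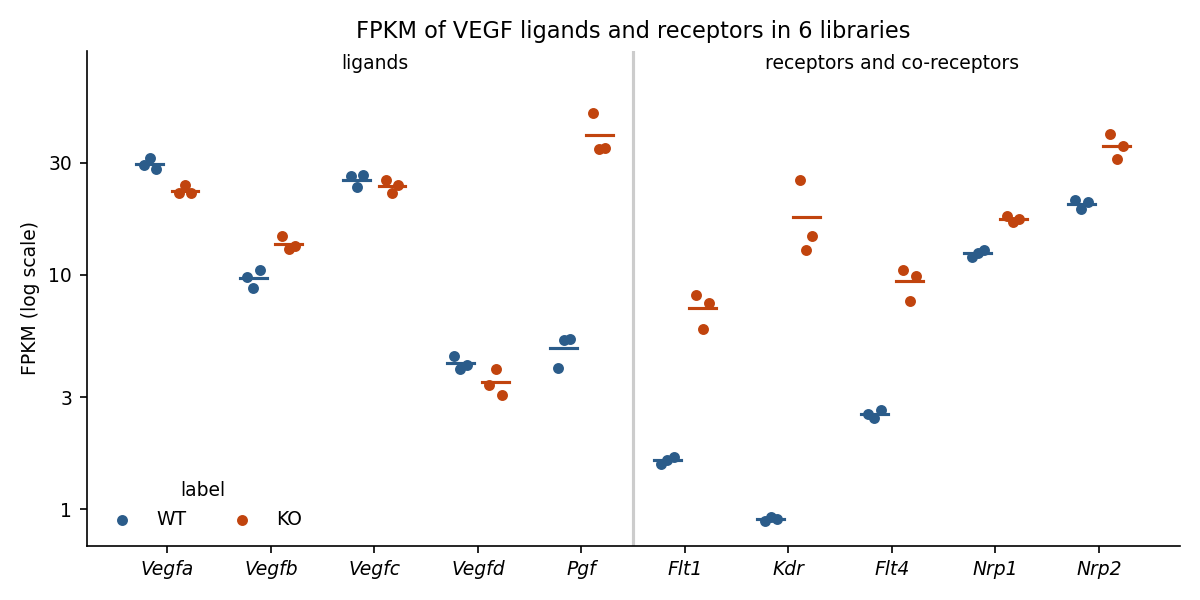
FPKM of the 10 genes on a log axis, with a point for each of the 3 libraries labelled WT (blue) and the 3 labelled KO (red) and a line at their mean. *Kdr* moves furthest, from a mean of 0.91 to 17.6 FPKM, and the points of the labels overlap only for *Vegfc*.

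Among the receptors, *Kdr* (ENSMUSG00000062960, chr5:75932827-75978458 on the minus strand, mm10) showed the largest rise of the 10 members. It had 25.3, 12.7 and 14.7 FPKM in KO and 0.891, 0.927 and 0.910 in WT. The KO libraries lay far above the WT libraries without overlap, and KO replicate 1 stood well above the other two, with 1.85 times their mean, while the WT libraries were nearly equal. Behind these values were 1626 to 2935 counts per library in KO and 124 to 133 in WT. The log2 fold change was 4.23 (18.8-fold, SE 0.27, edgeR adjusted p = 2.27e-05), and without KO replicate 1 it was 3.89. Its log2 fold change ranked 130 among the 14084 genes tested, counted from the largest rise. In WT the mean FPKM of *Kdr* was the lowest of the 10 members and at percentile 19.8 of all genes tested, and in KO it was at percentile 81.9.

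*Flt1* (ENSMUSG00000029648, chr5:147561604-147726011, minus strand), which encodes the high-affinity receptor of VEGF-A, PGF and VEGF-B, had 8.22, 5.85 and 7.59 FPKM in KO and 1.55, 1.62 and 1.67 in WT. Every KO library lay above every WT library, with 5.85 FPKM as the lowest value in KO and 1.67 as the highest in WT. The log2 fold change was 2.12 (4.36-fold, SE 0.12, edgeR adjusted p = 1.4e-05). The gene value sums the membrane-bound receptor and the shorter soluble form, which binds ligand without signaling, so their shares are not given by these data.

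*Flt4* (ENSMUSG00000020357, chr11:49609263-49652739, plus strand), which encodes the receptor of VEGF-C and VEGF-D, had 10.5, 7.71 and 9.89 FPKM in KO and 2.54, 2.45 and 2.64 in WT. The labels were again fully separated, with KO replicate 2 the lowest of its label as it was for *Flt1* and *Kdr*. The log2 fold change was 1.84 (3.59-fold, SE 0.11, edgeR adjusted p = 2.04e-05). Of 6 markers of lymphatic endothelium 4 were tested, of which 1 was higher and 1 was lower under TMM scaling (17.7% and 12.5% of all genes), and 1 was higher and none lower under either marker scaling. *Lyve1*, which encodes a hyaluronan receptor of lymphatic vessels that some cardiac macrophages also carry, rose from 0.548 ± 0.181 to 38.0 ± 5.24 FPKM (SD, n = 3), a log2 fold change of 6.08 (edgeR adjusted p = 1.94e-06). *Pdpn*, podoplanin, which stromal cells also express, was the lower marker (-0.43). *Prox1*, the transcription factor that defines lymphatic endothelium, stood at a mean of 0.538 FPKM under both labels (log2 fold change -0.03, edgeR adjusted p = 0.924), *Reln* had no more than 4 counts in any library, and *Ccl21a* was at 0 in all libraries.

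The neuropilins rose less. *Nrp1* (ENSMUSG00000025810, chr8:128359073-128505462, plus strand), co-receptor of KDR and receptor of SEMA3A, had 17.8, 16.8 and 17.3 FPKM in KO and 11.9, 12.4 and 12.7 in WT, with a coefficient of variation of 2.86% in KO and 3.16% in WT. *Nrp2* (ENSMUSG00000025969, chr1:62703285-62818695, plus strand), co-receptor of FLT4 and receptor of SEMA3F, had 39.8, 31.1 and 35.4 FPKM in KO and 20.8, 19.1 and 20.3 in WT. Both genes were separated between the labels. The log2 fold changes were 0.45 for *Nrp1* (1.37-fold, SE 0.05, edgeR adjusted p = 0.000487) and 0.79 for *Nrp2* (1.73-fold, SE 0.08, edgeR adjusted p = 0.000286). A listed gene on the same strand overlaps *Nrp2*, but it had 81 counts over all libraries where *Nrp2* had 32062.

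Among the ligands, *Pgf* (ENSMUSG00000004791, chr12:85166639-85177296, minus strand), which encodes placental growth factor, a ligand of FLT1 and NRP1, rose most. It had 49.0, 34.3 and 34.8 FPKM in KO and 3.99, 5.27 and 5.33 in WT. The KO libraries stood above all WT libraries, and KO replicate 1 was the highest, as it was for *Kdr*. The log2 fold change was 2.98 (7.89-fold, SE 0.17, edgeR adjusted p = 1.61e-05), and without KO replicate 1 it was 2.80. *Vegfb* (ENSMUSG00000024962, chr19:6982473-6987651, minus strand), another ligand of FLT1 that is abundant in heart muscle, had 14.7, 12.8 and 13.2 FPKM in KO and 9.75, 8.77 and 10.4 in WT. The labels did not overlap, and the log2 fold change was 0.46 (1.37-fold, SE 0.09, edgeR adjusted p = 0.00734).

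*Vegfa* (ENSMUSG00000023951, chr17:46016993-46032377, minus strand), the main ligand of KDR, was the only member that fell under TMM scaling. It had 22.2, 24.0 and 22.3 FPKM in KO and 29.3, 31.3 and 28.3 in WT. All KO libraries were below all WT libraries, and the log2 fold change was -0.41 (SE 0.06, edgeR adjusted p = 0.00132). This size was close to the median changes of the fibroblast (-0.42), cardiomyocyte (-0.41) and macrophage (-0.40) marker lists. The macrophage list was not uniform, with 6 of its 11 tested genes lower and *Cd68*, named here after its values were seen, higher (log2 fold change 1.38). With the libraries scaled so that the fibroblast markers have a median ratio of 1, *Vegfa* had a log2 fold change of 0.01 (edgeR adjusted p = 0.922), and with the cardiomyocyte and macrophage markers in their place it had -0.02 (edgeR adjusted p = 0.812). These scalings move the median of all genes from -0.02 to 0.40 and 0.38. Under them 61.7% and 60.2% of all genes tested were called higher and 0.284% and 0.341% lower, so a call or its absence has to be read against those shares, and 8 of the 10 members were called higher. The fall of *Vegfa* thus held relative to all genes and was not seen relative to these markers. In bulk RNA, fewer cells of a type and less RNA per cell cannot be told apart.

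*Vegfc* (ENSMUSG00000031520, chr8:54077532-54186454, plus strand), the main ligand of FLT4, had 25.3, 22.2 and 24.1 FPKM in KO and 26.3, 23.5 and 26.5 in WT, and was the only member whose libraries overlapped. Its log2 fold change was -0.13 (SE 0.07, edgeR adjusted p = 0.244), while with the fibroblast marker scaling it was 0.30 (edgeR adjusted p = 0.0319). *Vegfd* (listed as Figf, ENSMUSG00000031380, chrX:164373378-164402650, plus strand), the other ligand of FLT4, had 3.40, 3.97 and 3.07 FPKM in KO and 4.51, 3.98 and 4.13 in WT. The KO libraries lay below the WT libraries by a narrow margin, with 3.97 FPKM in KO replicate 2 and 3.98 in WT replicate 2, and the log2 fold change of -0.31 (SE 0.13, edgeR adjusted p = 0.110) did not pass. The plot of the changes under 3 scalings sets the members side by side.

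**Figure D2:**
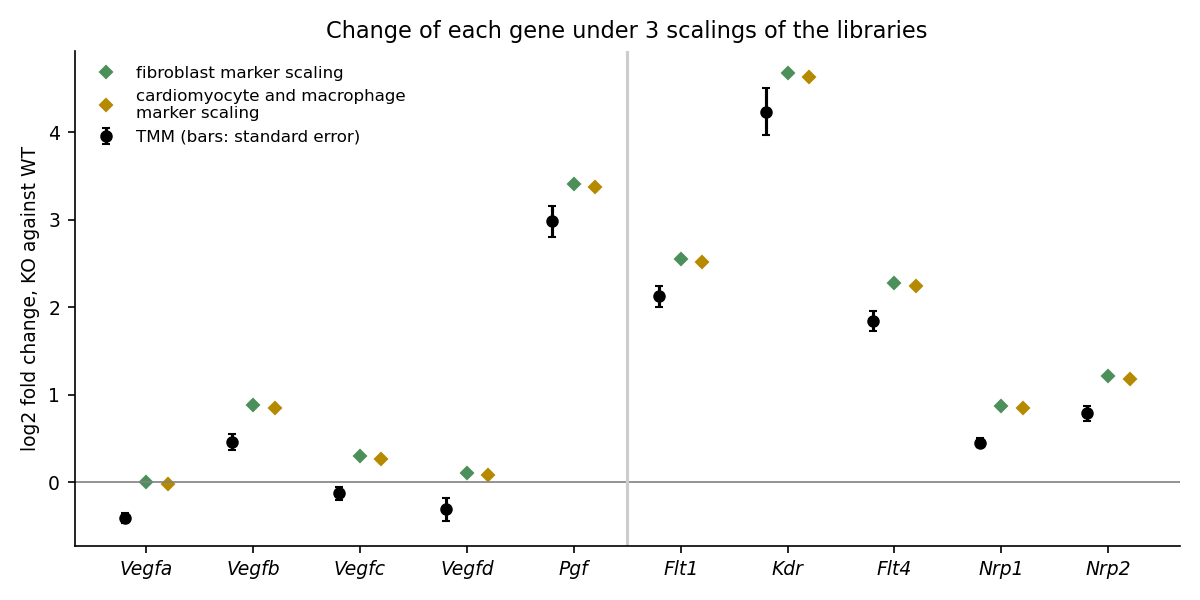
Log2 fold change of each gene, KO against WT, with TMM scaling (black, bars give the standard error) and with libraries scaled on fibroblast markers (green) or on cardiomyocyte and macrophage markers (yellow). The marker scalings lift every gene by a like amount, so that *Vegfa* moves from -0.41 to 0.01 or -0.02, while *Kdr*, *Pgf*, *Flt1* and *Flt4* stay at 1.84 or above under all 3.

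The order of the levels differed between the labels. In WT the mean FPKM ran from *Vegfa* (29.6) through *Vegfc* (25.4), *Nrp2* (20.1), *Nrp1* (12.3), *Vegfb* (9.65), *Pgf* (4.86), *Vegfd* (4.21), *Flt4* (2.54) and *Flt1* (1.62) to *Kdr* (0.91). Of the neighbours in that order, only *Pgf* and *Vegfd* overlapped in their libraries. In KO the order was *Pgf* (39.4), *Nrp2* (35.4), *Vegfc* (23.9), *Vegfa* (22.8), *Kdr* (17.6), *Nrp1* (17.3), *Vegfb* (13.6), *Flt4* (9.35), *Flt1* (7.22) and *Vegfd* (3.48). There the ranges of *Pgf* and *Nrp2*, of *Vegfc* and *Vegfa*, of *Vegfa* and *Kdr* and of *Kdr* and *Nrp1* overlapped, so these neighbours are not ordered beyond their spread. The ranges of *Flt4* and *Flt1* overlapped too, but *Flt4* was above *Flt1* in each of the 3 libraries. *Pgf* stood sixth in WT and at the top in KO.

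The sums per library show how the make-up of the system differed. The 5 ligands summed to 73.8 ± 0.891 FPKM (SD, n = 3) in WT and 103 ± 9.96 in KO. *Pgf* made up 6.59% ± 1.03 of this sum in WT and 37.9% ± 4.23 in KO, while *Vegfa* made up 40.2% ± 2.56 and 22.3% ± 2.71. *Vegfb* held nearly the same share, 13.1% ± 0.978 in WT and 13.2% ± 0.380 in KO. The 3 receptor tyrosine kinases, *Flt1*, *Kdr* and *Flt4*, summed to 5.07 ± 0.132 FPKM in WT and 34.1 ± 9.03 in KO. *Flt4* held the largest part of that sum in WT, 50.2% ± 1.02, and *Kdr* held the largest part in KO, 50.5% ± 6.24, against 17.9% ± 0.549 in WT. Of the FLT1 ligands that do not bind KDR, *Pgf* and *Vegfb*, *Pgf* was the less abundant in WT (33.5% ± 4.27 of their sum) and the more abundant in KO (74.1% ± 2.52). In each of these named shares but that of *Vegfb* the 3 libraries of a label lay apart from the 3 of the other, as the plot of shares by library shows. These shares rest on FPKM, and so on the gene lengths used, and are a description, with no test.

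**Figure D3:**
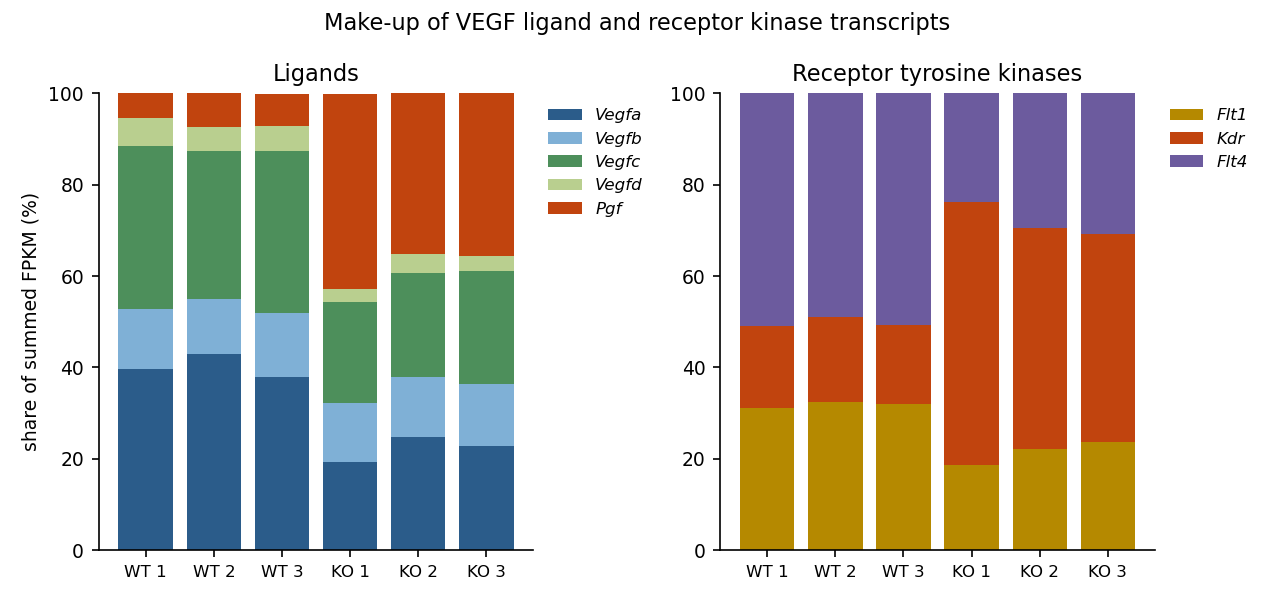
Share of each gene in the summed FPKM of the 5 ligands (left) and of the 3 receptor tyrosine kinases (right), as a stacked bar for each of the 6 libraries. *Pgf* fills between 35.2% and 42.8% of the ligand bar in the KO libraries and at most 7.23% in the WT libraries, and *Kdr* fills between 45.6% and 57.5% of the receptor bar in KO and at most 18.5% in WT.

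Ratios of genes inside a library do not depend on how libraries are scaled against each other, and 6 were computed. The FPKM of *Vegfa* was 32.9, 33.7 and 31.0 times that of *Kdr* in the WT libraries and 0.876, 1.89 and 1.52 times in the KO libraries, a difference of -4.58 in log2 (23.9-fold). The ratio of *Vegfa* to *Flt1* was 18.9, 19.2 and 16.9 in WT and 2.70, 4.11 and 2.94 in KO (-2.52 in log2), and that of *Vegfc* to *Flt4* was 10.4, 9.60 and 10.0 in WT and 2.42, 2.88 and 2.43 in KO (-1.96 in log2). For these 3 ligand and receptor pairs the KO libraries were all lower than the WT libraries. The ratio of *Pgf* to *Flt1*, described here after its values were seen and not tested, was higher in KO, with 5.97, 5.87 and 4.58 against 2.56, 3.24 and 3.19 in WT. *Kdr* to *Flt1* was higher in KO too, with 0.573, 0.571 and 0.546 in WT and 3.08, 2.17 and 1.93 in KO (2.06 in log2). The 3 ligand and receptor pairs tested, *Kdr* to *Flt1* and *Flt1* to *Pecam1* each gave p = 0.1 in the exact two-sided permutation test (adjusted p = 0.12 over the 6). This is the smallest p that 3 libraries against 3 allow.

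*Pecam1* encodes CD31, an adhesion protein of endothelial cells. The ratio of *Kdr* to *Pecam1* was 0.311, 0.221 and 0.205 in KO and 0.190, 0.209 and 0.232 in WT. The labels overlapped, with a difference of 0.20 in log2 (SD of 0.32 in KO and 0.14 in WT, exact permutation p = 0.5, adjusted p = 0.5), which does not show that the ratio was the same. The ratio of *Flt1* to *Pecam1* was 0.101, 0.101 and 0.106 in KO and 0.332, 0.367 and 0.424 in WT, a difference of -1.86 in log2. *Flt1* thus rose by less than *Pecam1* in every comparison of a KO with a WT library, as the plot of ratios shows.

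**Figure D4:**
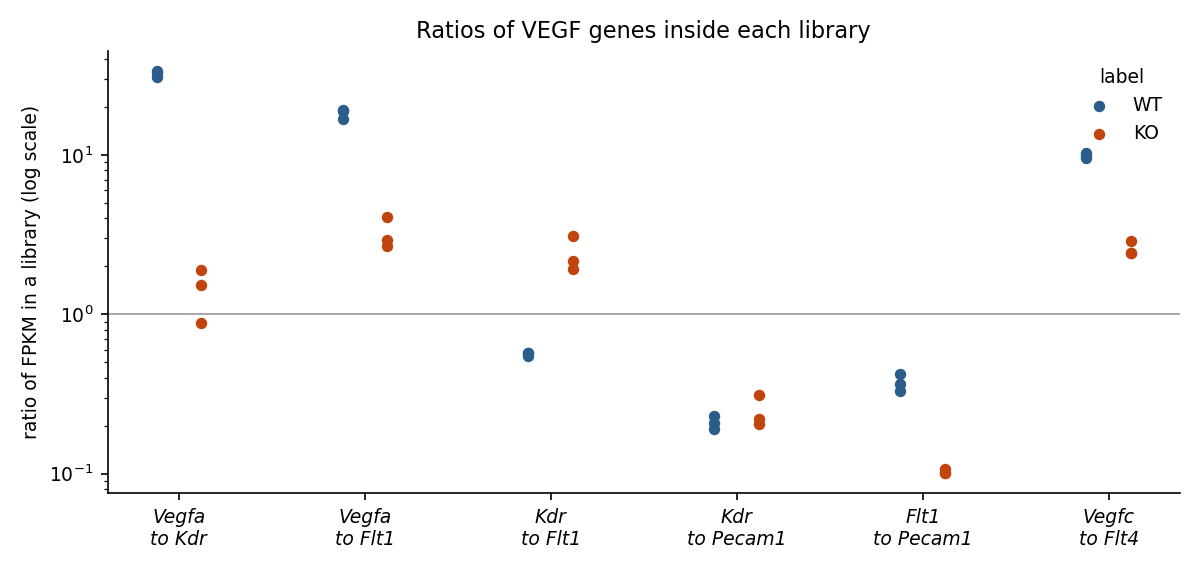
Ratios of FPKM between 2 genes of the same library on a log axis, for 6 pairs, with a point for each library labelled WT (blue) or KO (red). The labels are apart for every pair except *Kdr* to *Pecam1*, where both lie between 0.190 and 0.311.

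Endothelial markers moved with the receptors. Of 20 markers, among which are no members, 15 were higher and none was lower under TMM scaling (median log2 fold change 2.43, lowest -0.82). Over all genes 17.7% were called higher and 12.5% lower. With either marker scaling 17 of the 20 were higher and none was lower, where 60.2% to 61.7% of all genes were called higher. The summed level of the 20 markers was 441 to 567 FPKM in KO and 139 to 142 in WT. The 3 with the highest mean level were *Cdh5* (VE-cadherin of endothelial junctions), with a log2 fold change of 2.31, *Plvap* (diaphragms of fenestrated endothelium), with 2.77, and *Pecam1*, with 3.98. The 5 that did not pass, chosen here after their values were seen, were *Cldn5*, *Eng*, *Sox17*, *Ptprb* and *Aqp1*. KO replicate 1, highest for *Kdr* and *Pgf*, was also above the mean of the other KO libraries for 14 of the 15 higher markers, with a ratio of 1.17 at the median (range 0.919 to 1.47). Of 9 mural cell markers, genes of pericytes and smooth muscle, 8 were tested, 2 rose, *Mcam* (1.38), which endothelial cells also express, among them, and 4 fell under TMM scaling, where 17.7% of all genes were called higher and 12.5% lower, while with either marker scaling 2 rose and none fell. Neutrophil markers were low, with 2 of the 3 tested higher (*S100a8* at 4.83 FPKM and *S100a9* at 1.55 FPKM in KO on average), and of the mast cell and lymphocyte markers 3 of 7 and 4 of 6 were at 0 in all libraries. The mast cell marker *Kit*, which other cells also express, stood at a mean of 0.928 FPKM in KO and 1.14 in WT. The part of the cell type make-up in the rise of the receptors was not tested.

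Genes upstream of the ligands were described by their counts past the threshold, with 17.7% of all genes called higher and 12.5% lower as the background. Every fall in these lists is a call under TMM scaling, and with either marker scaling none of their genes was called lower. Under the marker scalings 60.2% to 61.7% of all genes were called higher and at most 0.341% lower. The list counts under these scalings are read against those shares and not against the TMM shares. Of 10 genes of oxygen sensing and HIF factors, 2 rose and none fell (median log2 fold change 0.00). These were *Egln3*, a prolyl hydroxylase that is itself induced by hypoxia, with 42.3 ± 3.53 FPKM in KO and 15.5 ± 0.490 in WT (log2 fold change 1.41, edgeR adjusted p = 8.64e-06), and *Hif1a*, with 0.40, while with either marker scaling 9 of the 10 were called higher (60.2% to 61.7% of all genes). Of 12 hypoxia-induced genes other than *Vegfa*, 7 rose and 2 fell (median 0.33). *Ero1l*, an oxidase of the endoplasmic reticulum, rose by 1.07 and *Ankrd37* by 0.95, although *Ankrd37* was below 1 FPKM under both labels and did not pass without KO replicate 1 or 3 or without WT replicate 2 or 3 (edgeR adjusted p up to 0.116). *Adm*, which encodes the vasodilator peptide adrenomedullin, fell by 0.43 and *Ddit4*, an inhibitor of mTORC1, fell by 0.18 on the log2 scale. The call of *Ddit4* was lost without KO replicate 2 or 3 or without WT replicate 1 or 2 (edgeR adjusted p up to 0.110), which leaves 1 fall in this list. *Vegfa* therefore fell while more of the other hypoxia-induced genes rose than fell, under the TMM scaling. With either marker scaling 9 of the 12 rose and none fell, where 60.2% to 61.7% of all genes rose.

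The lists of VEGF-C and VEGF-D processing and of heparan sulfate held more lower than higher genes under TMM scaling, where 17.7% of all genes were called higher and 12.5% lower. Of 8 genes of VEGF-C and VEGF-D processing, 2 rose and 4 fell (median -0.31). *Plau*, which encodes urokinase, the enzyme that turns plasminogen into plasmin, rose from 8.98 ± 0.226 to 134 ± 53.8 FPKM. Its log2 fold change was 3.87 (edgeR adjusted p = 3.45e-05), and it was again highest in KO replicate 1. *Pcsk7*, a proprotein convertase that cleaves the VEGF-C precursor, rose by 0.34, while *Pcsk5*, another convertase, fell by 0.48 and *Svep1*, an adhesion protein of lymphatic development, fell by 0.41 on the log2 scale. The call of *Pcsk7* was lost without KO replicate 1 or 3 or without WT replicate 1 or 2 (edgeR adjusted p up to 0.110), which leaves 1 rise in this list. Of 17 genes of heparan sulfate carriers and enzymes, on which the longer VEGF-A forms are held, none rose and 10 fell (median -0.32), with the glypicans *Gpc3* and *Gpc4* falling most among the genes past the threshold, by 0.45 each. With either marker scaling none of these fell and 6 of the 17 rose, a smaller share than the 60.2% to 61.7% of all genes, and of the 8 processing genes none fell and 4 (fibroblast markers) or 3 (cardiomyocyte and macrophage markers) rose.

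Semaphorins and plexins share the neuropilins with VEGF. Of 12 genes of this list 6 rose and 1 fell (median 0.14), where 17.7% of all genes were called higher and 12.5% lower under TMM scaling. The largest rises were those of *Plxna2*, from 0.826 ± 0.0417 to 3.55 ± 0.619 FPKM (log2 fold change 2.07), and of *Plxnd1*, the endothelial receptor of SEMA3E, from 15.1 ± 1.04 to 48.9 ± 9.06 FPKM (1.66), and *Sema3d* fell by 0.42 on the log2 scale. Of 14 receptor partners and regulators 6 rose and 1 fell (median 0.05), led by *Cdh5* and by *Dab2*, an endocytic adaptor (1.32), while *Efnb2*, the ephrin that guides uptake of KDR and FLT4, fell by 0.20. The call of *Efnb2* held without KO replicate 2 and was lost without any other library (edgeR adjusted p up to 0.0951), which leaves no fall in this list. The number of partners called higher was 5 without KO replicate 2 or 3. It was 4 without KO replicate 1 or any single WT replicate, and also with DESeq2 or the upper quartile. These counts, like those of the endothelial markers, include *Cdh5* in both lists. With either marker scaling 8 of the 12 semaphorin and plexin genes and 13 of the 14 partners were called higher, where 60.2% to 61.7% of all genes were.

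Inside the cell, 18 adaptors and 29 genes of kinase cascades could be tested. Of the 18 receptor-proximal adaptors tested 3 rose and 5 fell (median 0.04), where 17.7% of all genes were called higher and 12.5% lower under TMM scaling. With DESeq2 5 adaptors were called higher. *Vav3* rose by 1.13 and *Plcg1*, the phospholipase that binds activated KDR, by 0.42, while *Gab1* fell by 0.46 and *Shc2* by 0.40. The call of *Shc2* held without WT replicate 1 and was lost without any other library (edgeR adjusted p up to 0.0946), and the number of adaptors called lower was 3 without KO replicate 1 or 3 or without WT replicate 2, and 2 without WT replicate 3. Of 29 genes of kinase cascades and effectors 3 rose and 7 fell (median -0.12), against the same shares of 17.7% and 12.5%. *Nos3*, the endothelial nitric oxide synthase, rose from 1.33 ± 0.194 to 42.0 ± 4.39 FPKM (log2 fold change 4.94, edgeR adjusted p = 1.2e-06) and is also in the endothelial marker list, and *Prkd2* rose by 0.95. *Prkcb* fell by 0.56 and *Sphk1* by 0.53 on the log2 scale. The call of *Prkcb* was lost without KO replicate 1 or 3 or without WT replicate 1 or 2 (edgeR adjusted p up to 0.121), and 4 genes of this list were called lower without KO replicate 1, WT replicate 1 or WT replicate 3. With either marker scaling 11 of the 18 adaptors and 20 of the 29 kinase cascade genes were called higher, where 60.2% to 61.7% of all genes were, and with the upper quartile in place of TMM 11 of the 29 were called lower.

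Of 17 tested genes that VEGF is known to induce in endothelial cells, 8 rose and 5 fell (median 0.42). Under the same TMM scaling 17.7% of all genes were called higher and 12.5% lower. *Apln*, the ligand of the apelin receptor and a gene of endothelial tip cells, rose from 2.31 ± 0.166 to 94.4 ± 22.9 FPKM (log2 fold change 5.32, edgeR adjusted p = 2.28e-06). *Sele*, the leukocyte adhesion molecule E-selectin, rose by 2.39. *F3*, tissue factor, and *Egr1*, an immediate early gene, are induced by VEGF too but fell by 0.50 and 0.46 on the log2 scale. The call of *F3* was lost without KO replicate 1 or 3 or without WT replicate 2 or 3 (edgeR adjusted p up to 0.101). The members of this list therefore moved in both directions, and with either marker scaling 9 rose, where 60.2% to 61.7% of all genes did, and none fell. The plot of the lists shows the single genes.

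**Figure D5:**
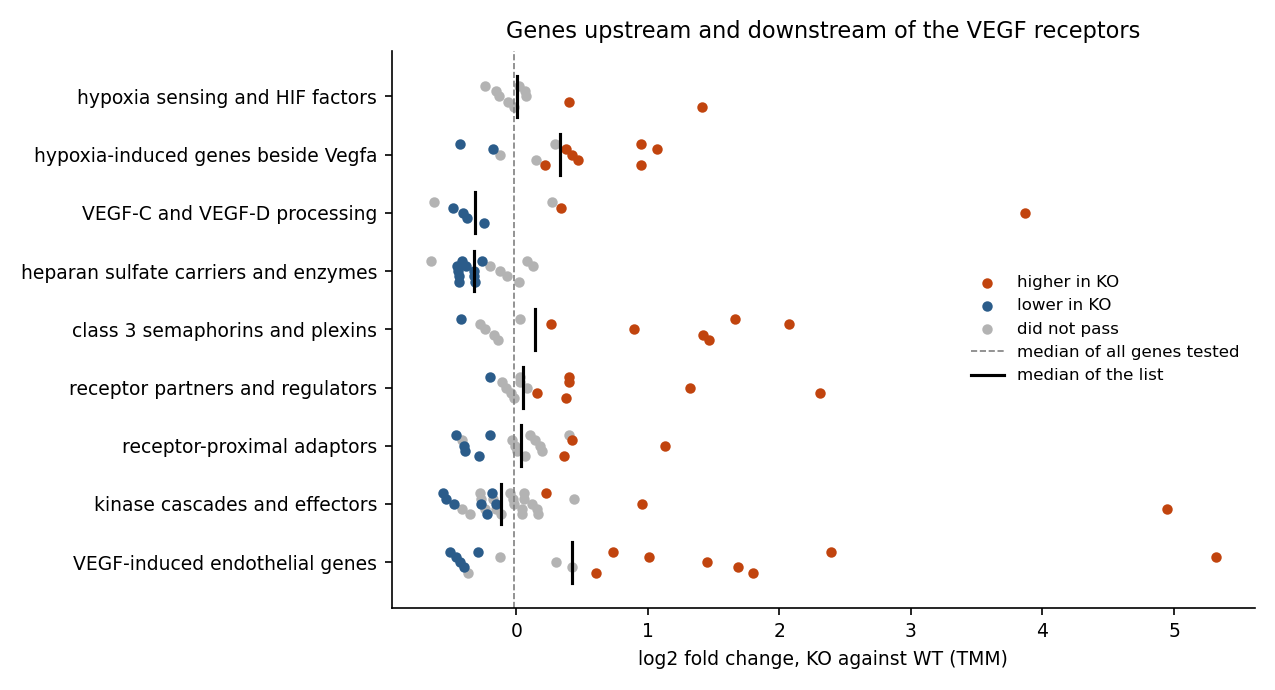
Log2 fold change, KO against WT with TMM scaling, of each tested gene in 9 lists around the VEGF receptors, red where higher, blue where lower and grey where the threshold was not passed, with a black line at the median of each list and a dashed line at that of all genes tested (-0.02). The rises are led by single genes, *Apln* (5.32), *Nos3* (4.94) and *Plau* (3.87), the list medians lie between -0.32 and 0.42, and none of the genes shown as lower was called lower with either marker scaling.

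The genes whose profile over the 6 libraries was most like that of 4 members were ranked by the Euclidean distance of centred log2(FPKM + 1) values among 11289 tested genes with a mean of at least 1 FPKM. This measure compares size and shape of the difference and is a description, since the points share the same 2 labels. Nearest to *Kdr* were *Bcl6b* (distance 0.266), *Adgrg3* (0.325) and 2810414N06Rik (0.357), and *Pgf* ranked 21. *Bcl6b*, a transcriptional repressor, had 32.3, 18.4 and 23.8 FPKM in KO and 1.60, 1.98 and 1.80 in WT, with the same order of the KO libraries as *Kdr*. Nearest to *Flt1* were *Cgnl1*, a junction protein (0.104), *Gngt2* (0.134) and *Col18a1*, the collagen from which endostatin is cut (0.134), and *Flt4* ranked 6 (0.140). Nearest to *Vegfa* were the proteoglycan gene *Lum* (0.0428), *Crtap*, which encodes a protein of collagen modification (0.0556), and *Fam174b* (0.0583). *Lum* is in the fibroblast marker list. Nearest to *Nrp1* were the prostaglandin transporter *Slco2a1* (0.0370), the glucose transporter *Slc2a1* (0.0483) and *Cobll1* (0.0642).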

How the data were processed

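Bulk RNA-seq covered cardiac fibroblasts of infarcted KDM5B-KO and WT hearts (3 libraries per label). mRNA was captured with oligo(dT) and made into strand-specific libraries. The authors aligned the reads with HISAT2 (mm10) and deposited raw counts per gene, without normalization, and FPKM values. The counting tool, the annotation release and the strand setting are not given in the sources used here. The deposited FPKM equals the count divided by gene length and library total: over 15340 genes the implied length varied among libraries by a relative 7.8e-04 at most.

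For the test, edgeR 4.0.16 (R 4.3.3) was run on all 6 libraries without covariates, with filterByExpr, TMM, the quasi-likelihood fit, Benjamini-Hochberg adjustment and a threshold of 0.05. Of 20854 detected genes, 14084 passed the filter. Library totals lay between 12025403 and 15329427, a count of 0 allows up to 3 counts or 0.249 CPM in the smallest library (counting error only), and the lowest member count was 91. Libraries of a label differed in 22.4% to 31.8% of genes (unadjusted p under 0.05, chi-square against counting error), so none is a repeat run of another library. This does not show that they came from separate animals. Ratios were tested with exact permutation tests over the libraries (scipy 1.17.1). The fit was tested on simulated data.

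Alternatives were no filter, a minimum mean CPM of 1, the tool DESeq2 1.42.0, library size, upper quartile or marker scaling (14 fibroblast genes, or 23 cardiomyocyte and macrophage genes), limma 3.58.1 on log2(FPKM + 1) or log2(FPKM + 0.1), a block for the replicate number, a fold change above 2 in addition, and leaving out each library. Genes were named by a rule: all members, *Kdm5b*, the 2 largest rises and 2 largest falls of each pathway list past the threshold, the 3 most abundant markers of each cell type, the genes of the ratios and the 3 nearest profiles. The members, lists and tests were chosen with earlier results of these data known. *Vegfd* was matched by its gene ID, the other 9 members by name. Promoter sequences came from RefSeq. Figures were drawn with matplotlib 3.10.9.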

Additional observations from a re-analysis of the deposited data

How the results depend on the processing

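*Vegfb*, *Pgf*, *Flt1*, *Kdr*, *Flt4*, *Nrp1* and *Nrp2* were higher and past the threshold in all 16 alternatives of scaling, filter, tool, block and libraries. With each library left out in turn the log2 fold change of *Kdr* ran from 3.89 to 4.42, that of *Pgf* from 2.80 to 3.07, that of *Flt1* from 2.03 to 2.26 and that of *Flt4* from 1.77 to 1.97. On log2(FPKM + 1), which understates changes of low genes, *Kdr* had 3.22. *Vegfa* was lower and past the threshold in 14 of 16 alternatives. With fibroblast marker scaling it was 0.0082 (edgeR adjusted p = 0.922), and with cardiomyocyte and macrophage marker scaling it did not pass. *Vegfc* turned from -0.13 to 0.30 and 0.27 under these scalings, which lift all genes, and *Vegfd* passed in none of the 16. Under them 8 members were higher and 0 lower, and over all genes 8683 and 8474 were higher and 40 and 48 lower, against 2488 and 1760 with TMM. With a fold change above 2 in addition, 4 members were higher, without *Vegfb*, *Nrp1* and *Nrp2*, and 0 lower, and over all genes 844 were higher and 38 lower. Leaving out single libraries gave 1131 to 1614 genes lower, with the lowest count without KO replicate 3, where the cause was not tested. *Kdm5b* passed the threshold with the upper quartile (-0.26), with the replicate block (-0.21) and without WT replicate 1 (-0.29). Its sign turned under the marker scalings without passing. It was 0.20 with fibroblast markers (edgeR adjusted p = 0.0508) and 0.17 with cardiomyocyte and macrophage markers (edgeR adjusted p = 0.0949). The labels give both groups the replicate numbers 1 to 3 and do not say what a shared number means. Deviations of same-numbered libraries from their label means had correlations of 0.0021, 0.0032 and 0.035. With 3 libraries per label these low values cannot exclude a shared batch or litter. With the replicate block 2316 genes were higher and 1591 lower, and among the members 7 were higher and 1 lower. With 3 libraries per label the spread of each value is known only roughly, and *Vegfd* rests on 111 to 177 counts per library.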
